A study of Mus musculus with 4 samples.

Results

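The 10 genes described here are C1qa, C1qb, C1qc, Apoe, Retnla, Mrc1, Folr2, Cd163, Lyve1 and Ccr2. They were chosen by name, and all 10 were found among the 32285 genes of both expression libraries. C1q is the recognition molecule of the classical complement pathway. Its A, B and C chains assemble into collagen-like stalks with globular heads that bind antibody on a surface or a dying cell and start the complement cascade. Tissue macrophages are a main source of C1q. Many of them also express Apoe, the apolipoprotein that carries cholesterol out of cells, Folr2, a folate receptor, and Lyve1, a hyaluronan receptor. Retnla (RELMα) and Mrc1 (the mannose receptor) are classic products of alternative activation by interleukin-4, Cd163 takes up haemoglobin-haptoglobin complexes, and Ccr2 is the chemokine receptor by which monocytes leave the bone marrow.

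The peritoneal cavity holds large macrophages that depend on the transcription factor Gata6 and express the lubricin gene Prg4. It also holds small macrophages and monocytes with MHC class II and Ccr2, and dendritic cells. Peritoneal lavage was taken from wild-type (WT) and knockout (KO) mice, and CD45+ cells were sorted from it. Mice of both genotypes were fed a high-fat diet from the age of 4 weeks, for 3 months, so every value here is from that diet. Each genotype was read as 1 droplet expression library with 1 B-cell receptor library. The labels give neither the strain, the sex nor the number of mice per library. With 1 library per genotype there was no replicate, no test was made, and every interval is a 95% interval for counting error only.

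The WT library held 10087 barcodes with a median of 6362 unique molecular identifiers (UMIs), and the KO library 22516 with a median of 3298. After filtering 9224 and 18465 were kept. The libraries shared 293 barcode sequences. Depth and genotype cannot be told apart for the KO to WT differences below.

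The classes of myeloid barcodes were formed from marker genes, none of them among the 10. Barcodes with a UMI of the macrophage growth factor receptor Csf1r and of Gata6 or Prg4, called Gata6/Prg4+ below, numbered 22 in WT (0.239% of those kept) and 85 in KO (0.46%). Of these 0 and 5 rested on 1 UMI of Gata6 and Prg4 summed. Csf1r+ barcodes with neither, called Gata6/Prg4-, numbered 64 (0.694%) and 225 (1.22%), and 14 and 87 of these rested on 1 Csf1r UMI. Dendritic barcodes, with a UMI of Cd209a and of Flt3 or Zbtb46, numbered 44 (0.477%) and 120 (0.65%). B cells (6744 and 13709 barcodes) and T or NK cells (2155 and 3767) served as a gauge of free transcripts.

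The lists of large macrophage and dendritic markers were highest in the class they name, but that of small macrophages was not. Levels are sums of UMIs over a class, scaled to 1000000 UMIs of that class (CPM). The 10 markers of large macrophages summed to 16927 CPM (WT) and 10999 CPM (KO) in Gata6/Prg4+ barcodes, against 38.9 and 24.9 CPM in Gata6/Prg4- barcodes. Gata6 and Prg4 are among the 10 and were fixed by the rule, and the other 8 summed to 8690.5 and 5516 CPM, against 38.9 and 24.9 CPM. H2-Aa, an MHC class II gene, stood at 953 and 1149 CPM in the former and 14690.4 and 13723 CPM in the latter, which can also hold monocytes. The 8 markers of small macrophages or monocytes include H2-Aa and Ccr2. They summed to 7012 and 7445 CPM in Gata6/Prg4+ barcodes, where most came from markers other than H2-Aa. In Gata6/Prg4- barcodes they summed to 17051 and 16734 CPM, and in dendritic barcodes to 20654 and 22273 CPM. The 7 macrophage markers, Csf1r among them, summed to 65777 and 54324 CPM in Gata6/Prg4+ and 24027 and 25628 CPM in Gata6/Prg4- barcodes. The 8 dendritic markers summed to 2169 and 2106 CPM in dendritic barcodes, against 403 and 342 CPM in Gata6/Prg4- barcodes. Cd209a, Flt3 and Zbtb46 are among those 8 and were used by the rule. The 4 stromal markers were at 0 in all myeloid classes.

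C1qb, C1qc and C1qa follow one another on chromosome 4 in the RefSeq annotation of GRCm38.p6, between Ephb2 and Epha8 among protein-coding genes. Because the chains moved together in what follows, the 250 bases before the start of C1qb and of C1qc are shown from RefSeq, 5′ to 3′. Of the 10 genes 8 had an entry, and C1qa and Lyve1 are named only. Capitals mark GAGGAA, a core often bound by the myeloid factor PU.1, and TGCTGA, the core of sites bound by Maf factors, searched on both strands (TTCCTC and TCAGCA on the other). The C1qb window is chr4:136886201-136886450 and the C1qc window chr4:136892915-136893164, both on the minus strand.
C1qb: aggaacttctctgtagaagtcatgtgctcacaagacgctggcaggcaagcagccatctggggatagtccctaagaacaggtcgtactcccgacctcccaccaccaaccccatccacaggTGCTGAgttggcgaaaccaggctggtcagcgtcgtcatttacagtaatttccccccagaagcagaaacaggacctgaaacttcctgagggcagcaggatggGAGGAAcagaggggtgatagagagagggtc
C1qc: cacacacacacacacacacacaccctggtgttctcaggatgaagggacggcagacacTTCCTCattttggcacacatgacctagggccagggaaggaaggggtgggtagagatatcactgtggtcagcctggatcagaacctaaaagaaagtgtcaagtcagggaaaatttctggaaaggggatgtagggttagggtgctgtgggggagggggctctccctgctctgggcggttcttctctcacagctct

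The C1qb window held 1 GAGGAA, beginning 30 bases before the start, and 1 TGCTGA, beginning 131 bases before it. The C1qc window held 1 GAGGAA on the other strand, beginning 193 bases before the start, and no TGCTGA. Of all 32851 RefSeq windows of this length 23.3% held GAGGAA and 16.1% held TGCTGA. Both motifs are common, and the matches describe these letters only.

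Gata6/Prg4+ barcodes carried all 3 C1q chains, at levels that were alike in the libraries. C1qa stood at 3536 CPM (3321 to 3762) in WT and 3726 CPM (3569.9 to 3887) in KO. C1qb stood at 4915 CPM (4661 to 5179.9) and 5208 CPM (5023 to 5398). C1qc stood at 4299.5 CPM (4062 to 4547) and 3982 CPM (3820.5 to 4149). Every WT barcode held a UMI of every chain, and of the 85 KO barcodes 83 held C1qa, 85 C1qb and 84 C1qc. The KO to WT ratios of 1.05 (0.977 to 1.14) for C1qa, 1.06 (0.994 to 1.13) for C1qb and 0.926 (0.864 to 0.994) for C1qc did not reach 1.5-fold, the threshold for a difference between genotypes. From barcode to barcode, C1qb had 10th and 90th percentiles of 2786 and 7079 CPM in WT and 2085 and 8973 CPM in KO.

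Apoe was likewise detected in every Gata6/Prg4+ barcode, 22 of 22 and 85 of 85. It stood at 10035 CPM (9669.6 to 10409.7) in WT and 12836 CPM (12544 to 13132) in KO, a ratio of 1.28 (1.22 to 1.34). The WT barcode with the most Apoe held 439 of 2852 UMIs, so no single barcode set the level. With barcodes thinned to 2000 UMIs before the classes were formed (12 WT and 53 KO barcodes), the ratio was 1.84 (1.58 to 2.15) and passed the threshold.

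Retnla was the one gene of the 10 called lower in KO in this class. It stood at 2864 CPM (2671 to 3068) in WT and 691 CPM (625 to 763) in KO, a ratio of 0.241 (0.214 to 0.272). A single WT barcode, at 44556 CPM, held 595 of the 814 WT UMIs (73.1%), and the next held 148. Without the highest barcode of each library the sums stood at 809 and 542 CPM, and the ratio of 0.67 (0.561 to 0.80) fell short of the threshold. After thinning before classing it turned to 1.91 (1.02 to 3.97).

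Detection of Retnla gave no firmer answer. It was found in 12 of 22 WT barcodes (54.5%) and 26 of 85 KO barcodes (30.6%). With barcodes of this class thinned to 2000 UMIs, which left out 2 WT and 4 KO barcodes, the shares were 50% (27.2 to 72.8) and 24.7% (15.8 to 35.5), with intervals that overlapped.

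The other receptors were carried by few Gata6/Prg4+ barcodes. Mrc1 stood at 24.6 CPM (9.9 to 50.7) in WT, all 7 UMIs from 1 barcode, and at 62.7 CPM (43.9 to 86.8) in KO, from 22 barcodes. Its ratio of 2.55 (1.12 to 6.78) passed the threshold, but was 0.774 where both Gata6 and Prg4 had to be detected and 0.377 after thinning before classing. Ccr2 stood at 10.6 CPM (2.18 to 30.8) in WT, all 3 UMIs from 1 barcode, and at 90.5 CPM (67.6 to 119) in KO, from 11 barcodes, a ratio of 8.58 (2.78 to 42.9). The ratio lay between 5.42 and 8.74 in 11 alternatives, all called, and in the others the WT count fell to 0. The call was lost where both Gata6 and Prg4 had to be detected. H2-Aa stood at 18639 CPM in the WT barcode with Ccr2 and at 15541 CPM in the KO barcode with the most Ccr2. In the other KO barcodes with Ccr2 it ranged from 0 to 10860 CPM, and its part was not tested. Folr2 had 2 UMIs in WT and 23 in KO, and Cd163 0 and 13, with every sum under the 50 CPM that a call asked of at least 1 sum. By the limit of 3 counts used here for a count of 0, the 22 WT barcodes allow a share with a Cd163 UMI of up to 13.6%.

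Lyve1 was confined to few barcodes of this class in both libraries. In WT 27 of 28 UMIs came from 1 barcode (98.5 CPM in sum), and in KO 85 UMIs came from 11 barcodes at 148 CPM (118 to 183). The ratio of 1.5 (0.97 to 2.39) was not called, but was 2.49 (1.64 to 3.89) with no limit on lymphocyte markers and 32.4 without the highest barcode of each library. Of the 11 KO barcodes with Lyve1, 10 held Mrc1, 7 Folr2, 5 Cd163 and 2 Ccr2. Of the 74 without Lyve1, 12 held Mrc1, 3 Folr2, 2 Cd163 and 9 Ccr2. Of the 11 KO barcodes with Ccr2, 9 held Mrc1 and 0 Cd163, against 13 and 7 of the 74 without it. Mrc1 thus shared barcodes with Lyve1 and with Ccr2. The 2 barcodes with both Lyve1 and Ccr2 are too few to say whether those genes lay apart.

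In all, 8 of the 10 genes reached 50 CPM in 1 of the Gata6/Prg4+ sums, of which 2 (Mrc1 and Ccr2) were called higher in KO and 1 (Retnla) lower. Of all 3135 genes tested in this class 9.28% were called in either direction, 5.74% higher and 3.54% lower. For each of the 3 genes the WT value came wholly or mostly from 1 barcode. Markers of dividing cells summed to 141 CPM (WT) and 10.4 CPM (KO) in this class, with B-cell markers at 95 and 95.8 CPM. Their part in the differences was not tested.

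**Figure D1:**
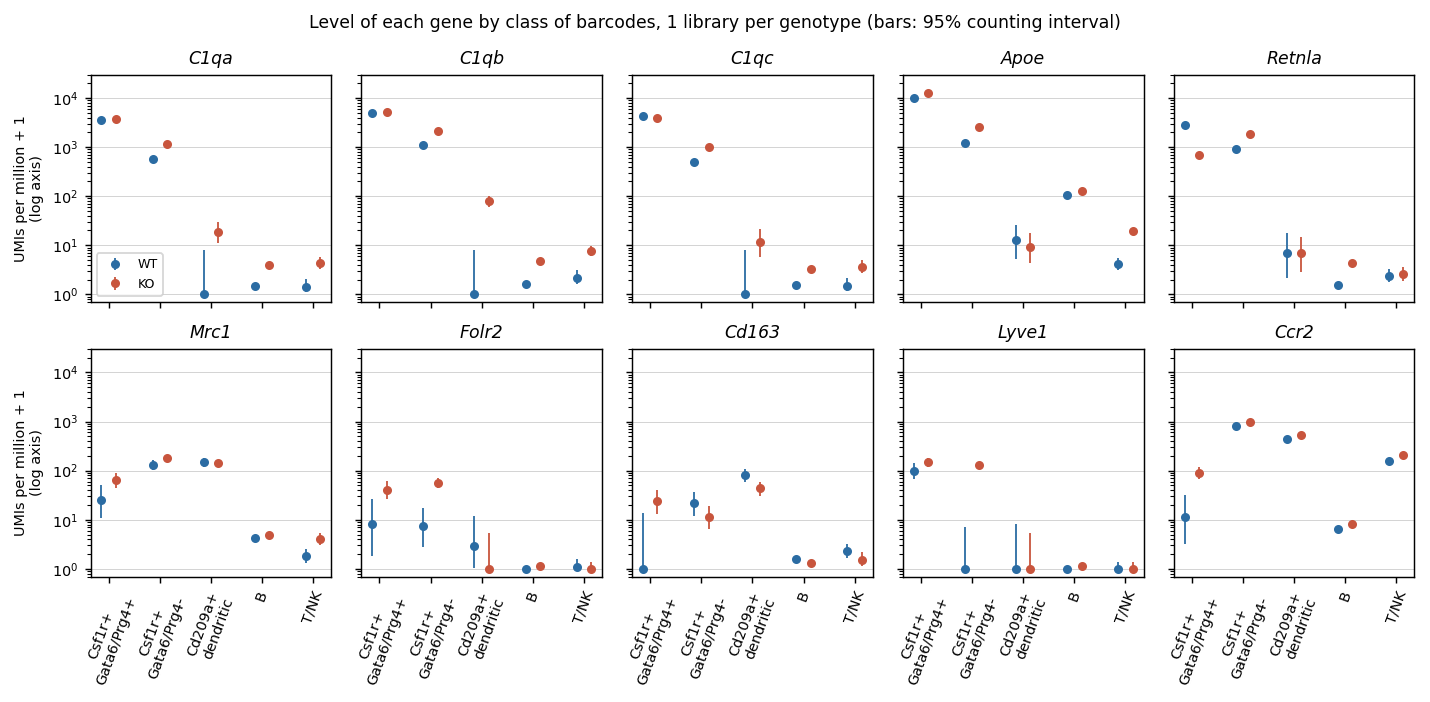
Level of each of the 10 genes (y axis, CPM plus 1, log axis) in 5 classes of barcodes (x axis) for the WT (blue) and KO (red) library, with 95% counting intervals as bars. The C1q chains stand at 3536 CPM or more in Gata6/Prg4+ barcodes of both libraries and at 0 in WT dendritic barcodes, and Ccr2 is highest in Gata6/Prg4- barcodes.

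Gata6/Prg4- barcodes had lower C1q sums that differed between the libraries. C1qa stood at 564 CPM (506 to 626) in WT and 1153 CPM (1094 to 1214) in KO, a ratio of 2.04 (1.82 to 2.31). C1qb stood at 1087 CPM (1006 to 1172) and 2082 CPM (2003 to 2164), a ratio of 1.92 (1.76 to 2.09). C1qc stood at 492 CPM (439 to 551) and 1004 CPM (949 to 1061), a ratio of 2.04 (1.8 to 2.32). The 3 chains were higher in KO to about the same degree. With the mean of barcode CPM in place of the sum, the ratios were 1.56, 1.45 (under the threshold) and 1.58. With thinning before classing (37 WT and 149 KO barcodes) they were 1.26, 1.34 and 1.16, all under it.

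Apoe was also higher in KO, and more steadily. It stood at 1183 CPM (1098 to 1272) in WT and 2566 CPM (2478 to 2657) in KO, a ratio of 2.17 (2.0 to 2.35), and was detected in 35 of 64 and 161 of 225 barcodes. Its ratio was 2.11 by the mean of barcode CPM and 2.45 after thinning before classing. Over all alternatives it lay between 1.98 and 2.45.

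Retnla came from very few Gata6/Prg4- barcodes at very high levels. It stood at 928 CPM (854 to 1007) in WT and 1875 CPM (1799.9 to 1953) in KO, a ratio of 2.02 (1.84 to 2.22). In WT 8 of 64 barcodes held a UMI, 1 of them 432 of 573 UMIs (75.4%), and in KO 33 of 225 did, the highest with 442 of 2339 (18.9%). Without the highest barcode of each library the sums stood at 232 and 1530.3 CPM, a ratio of 6.6. After thinning before classing the ratio turned to 0.597 (0.487 to 0.737). Its size thus depended on 1 WT barcode. Its direction turned with thinning, which also left 37 WT and 149 KO barcodes in the class. Depth and membership of the class were not told apart.

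Folr2 and Lyve1 were higher in KO Gata6/Prg4- barcodes, from low WT counts. Folr2 stood at 6.48 CPM (1.77 to 16.6) in WT, from 4 UMIs, and 56.1 CPM (43.7 to 70.9) in KO, a ratio of 8.66 (3.24 to 32.7) that was 5.21 (0.839 to 216) and not called after thinning before classing. Lyve1 was at 0 in WT, which allows up to 4.69% of 64 barcodes, and at 129.9 CPM (111 to 151) in KO, at least 26.7-fold higher against a floor of 3 UMIs. Its 162 KO UMIs came from 9 of 225 barcodes (4.0%), a share within what the WT count allows.

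The Lyve1+ barcodes of this class also carried other genes of the 10. Of the 9 in KO, 9 held C1qb, 8 Folr2, 8 Ccr2, 7 Mrc1, 5 Retnla and 0 Cd163. Of the 216 without Lyve1, 87 held C1qb, 19 Folr2, 200 Ccr2, 93 Mrc1, 28 Retnla and 10 Cd163. Folr2 was thus mostly found with C1qb as well, in 25 of its 27 barcodes.

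Mrc1, Ccr2 and Cd163 were not called in this class. Mrc1 stood at 131 CPM (104 to 163) in WT and 184 CPM (161 to 209.8) in KO, a ratio of 1.41 (1.09 to 1.83). Ccr2 stood at 808 CPM (739 to 883) and 986 CPM (932 to 1043), a ratio of 1.22 (1.1 to 1.36), and was detected in 57 of 64 and 208 of 225 barcodes. Cd163 stood at 21.1 and 10.4 CPM, with 13 UMIs in each library.

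Of the 9 genes that reached 50 CPM in this class, 7 were called, all higher in KO. Across all 2944 genes tested, 7.61% were called, 4.04% higher and 3.57% lower. Several of the 7 share barcodes, so they are not separate observations. B-cell markers summed to 30.8 CPM (WT) and 109 CPM (KO) in this class, T and NK markers to 92.3 and 73.8 CPM. Free C1qb was higher in KO too, at 0.657 (WT) and 3.9 CPM (KO) in B cells and 1.2 and 6.69 CPM in T and NK cells. Each of these levels was under 1% of that in the Gata6/Prg4- barcodes of its library, and the part of these signals in the differences was not tested.

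**Figure D2:**
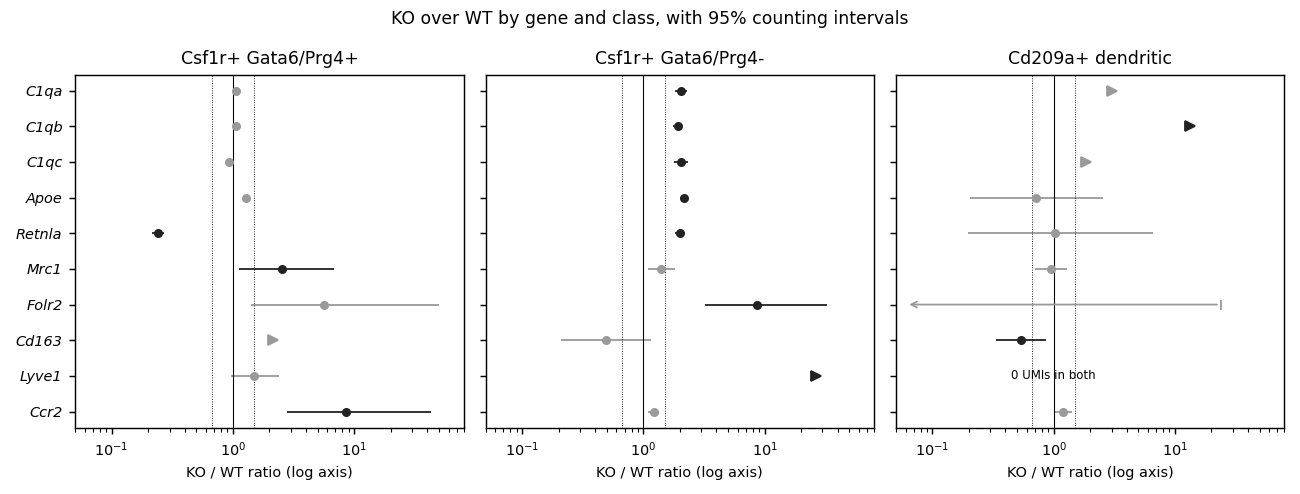
KO to WT ratio (x axis, log axis) of each gene in the 3 myeloid classes, with 95% counting intervals. Black points pass 1.5-fold with an interval that excludes 1 and at least 50 CPM in 1 sum, grey points do not, right-pointing triangles are lower bounds against a WT count of 0, and the left arrow marks a KO count of 0. C1q, Apoe, Retnla, Folr2 and Lyve1 lie to the right in Gata6/Prg4- barcodes, and Retnla lies to the left, at 0.241, in Gata6/Prg4+ barcodes.

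C1q was not spread evenly over the Gata6/Prg4- barcodes. In WT 44 of 64 and in KO 125 of 225 held no UMI of any chain. Barcodes were divided at 1000 CPM of the 3 chains summed, a value chosen after the levels had been seen. On the high side lay 15 WT barcodes (23.4%, 13.8 to 35.7) and 83 KO barcodes (36.9%, 30.6 to 43.6), with median C1q sums of 8604 and 8906 CPM. Only 3 WT and 9 KO barcodes lay within 2-fold of the division, which marks ranges of one measure, not cell types.

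Among C1q-high barcodes the chains were alike in the libraries, with KO to WT ratios of 1.04 (0.926 to 1.17) for C1qa, 0.983 (0.902 to 1.07) for C1qb and 1.04 (0.914 to 1.18) for C1qc. C1q-high barcodes held 131297 UMIs against 485978 in C1q-low barcodes of WT, and 519974 against 727395 in KO. Their median depth was 7715 UMIs in WT and 6007 in KO, that of the others 9609 and 4499.5. The shares of C1q-high barcodes had intervals that overlapped. With barcodes of this class thinned to 2000 UMIs, the WT library had C1qb in 24.2% (14.2 to 36.7) of its 62 and the KO library in 39.1% (32.5 to 45.9) of its 215, against 31.2% and 42.7% before thinning. B cells, which lack the gene, had it in 0.356% and 1.35%, and they had Retnla in 0.386% and 0.737%, at median depths of 7040 and 3212 UMIs.

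Retnla lay mostly in C1q-high barcodes. It stood at 4166 CPM in C1q-high and 53.5 CPM in C1q-low barcodes of WT, a ratio of 77.9 (52.6 to 120.3), and at 4414 and 60.5 CPM in KO, with a high to low ratio of 73 (54.2 to 101). C1q-high barcodes held 95.5% of its UMIs in WT and 98.1% in KO. Most C1q-high barcodes still had none: 5 of 15 in WT and 26 of 83 in KO held a Retnla UMI, against 3 of 49 and 7 of 142 C1q-low barcodes. At 1000 CPM of Retnla or more there were 4 WT barcodes, 3 of them C1q-high, and 23 KO barcodes, 19 of them C1q-high.

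Folr2 and Lyve1 were also higher in C1q-high barcodes. Folr2 stood at 117 CPM in C1q-high and 12.4 CPM in C1q-low KO barcodes, a ratio of 9.48 (4.68 to 21.7), and its 4 WT UMIs were all in C1q-high barcodes. All 162 Lyve1 UMIs of KO were in C1q-high barcodes (312 CPM), at least 75.5-fold above C1q-low. Apoe stood at 2102 against 934 CPM in WT, with a high to low ratio of 2.25 (1.93 to 2.62), and at 3783 against 1696 CPM in KO, with a high to low ratio of 2.23 (2.08 to 2.4). The Apoe ratios were under 2-fold with at least 2 Csf1r UMIs asked, at 1.96 and 1.8, and by the mean of barcode CPM, at 1.41 and 1.87. In WT the Apoe ratio was 1.66 without the highest barcodes and 0.565 (0.28 to 1.04) after thinning before classing, which left 8 C1q-high barcodes.

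Ccr2 did not differ by 2-fold across the division. It stood at 906 CPM in C1q-high and 782 CPM in C1q-low barcodes of WT, a ratio of 1.16 (0.935 to 1.43), and at 894 and 1052 CPM in KO, with a high to low ratio of 0.85 (0.756 to 0.955). It was detected in 12 of 15 and 80 of 83 C1q-high barcodes, so C1q and Ccr2 transcripts lay in the same barcodes. Mrc1 had ratios of 2.96 (1.86 to 4.69) in WT and 1.37 (1.05 to 1.8) in KO, the first called and the second not. The 10 markers of large macrophages summed to 53.3 CPM (WT) and 38.5 CPM (KO) in C1q-high barcodes, with Gata6 and Prg4 at 0 by the choice of class. The 8 dendritic markers summed to 0 CPM in C1q-high against 512 CPM in C1q-low barcodes of WT, and 30.8 against 564 CPM in KO. The part of dendritic transcripts in the high to low differences was not tested.

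Leaving aside the chains that set the division, 3 of the 4 other genes tested in WT (Apoe, Retnla and Mrc1) and 4 of the 6 in KO (Apoe, Retnla, Folr2 and Lyve1) were called higher in C1q-high barcodes, and none lower. Of all genes 8.86% were called in WT (6.07% higher, 2.8% lower) and 5.03% in KO (2.83% and 2.2%). In both libraries 29 genes were higher, C1q among them, and 20 lower, of 2746 tested. Some are named here, after their values were seen. Pf4, a chemokine, stood at 53.3 against 0 CPM in WT and 181 against 13.7 CPM in KO. C3ar1, the receptor for complement fragment C3a, stood at 175 against 22.6 and 209.6 against 48.1 CPM. The transcription factor gene Maf stood at 91.4 against 12.3 and 135 against 33 CPM. Among the lower genes were Cd209a, at 0 against 385 and 11.5 against 476 CPM, and Il1b, the inflammatory cytokine, at 251 against 971 and 256 against 921 CPM. Ly6c2, a monocyte marker, was lower as well, at 53.3 against 177 and 76.9 against 219 CPM.

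Between genotypes Apoe was called on both sides of the division. Its KO to WT ratio was 1.8 (1.59 to 2.05) in C1q-high and 1.82 (1.63 to 2.03) in C1q-low barcodes, the latter 1.42 and not called after thinning before classing. Folr2 had a ratio of 3.85 (1.43 to 14.6) in C1q-high barcodes and Lyve1 one of at least 13.6. Retnla had one of 1.06 (0.965 to 1.17) there, which was 3.83 without the highest barcodes and 0.346 after thinning before classing. Mrc1 was called in C1q-low barcodes, at 1.72 (1.21 to 2.49), but stood at 1.01 with dendritic barcodes kept in the class and 0.916 after thinning before classing. The calls were 3 of 9 genes tested in C1q-high barcodes, where 9.4% of all genes were called (3.4% higher, 6.0% lower), and 2 of 4 in C1q-low barcodes, where 7.99% were (4.58% and 3.42%).

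**Figure D3:**
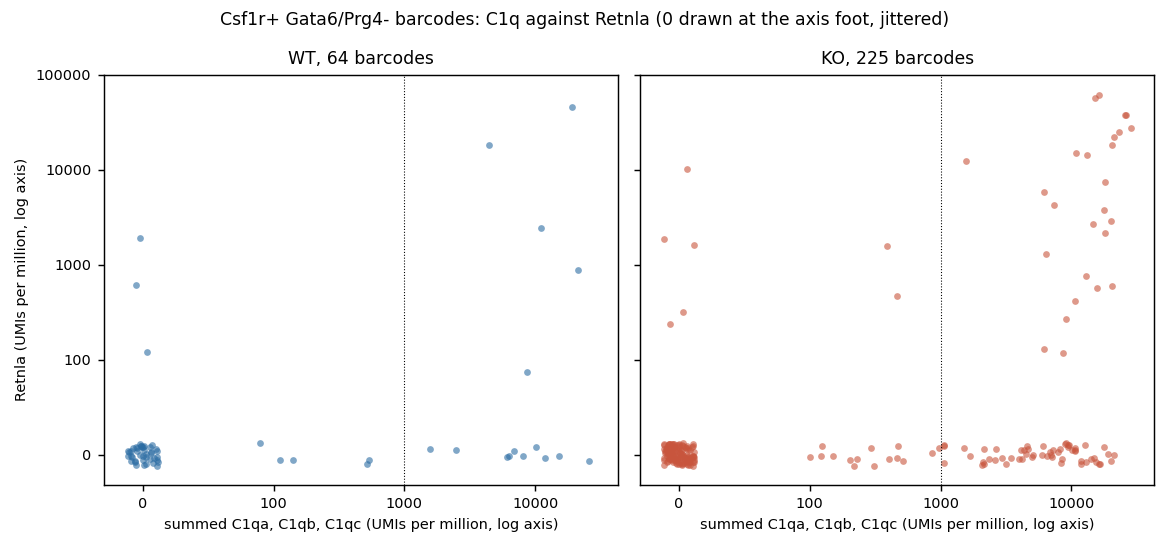
Each point is a Gata6/Prg4- barcode of the WT (left, 64) or KO (right, 225) library, with summed C1q on the x axis and Retnla on the y axis, both in CPM on log axes. Barcodes at 0 are drawn at the tick marked 0 with jitter, and the dotted line is the division at 1000 CPM. Of the barcodes at 1000 CPM of Retnla or more, 3 of 4 in WT and 19 of 23 in KO lie to the right of the line.

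**Figure D4:**
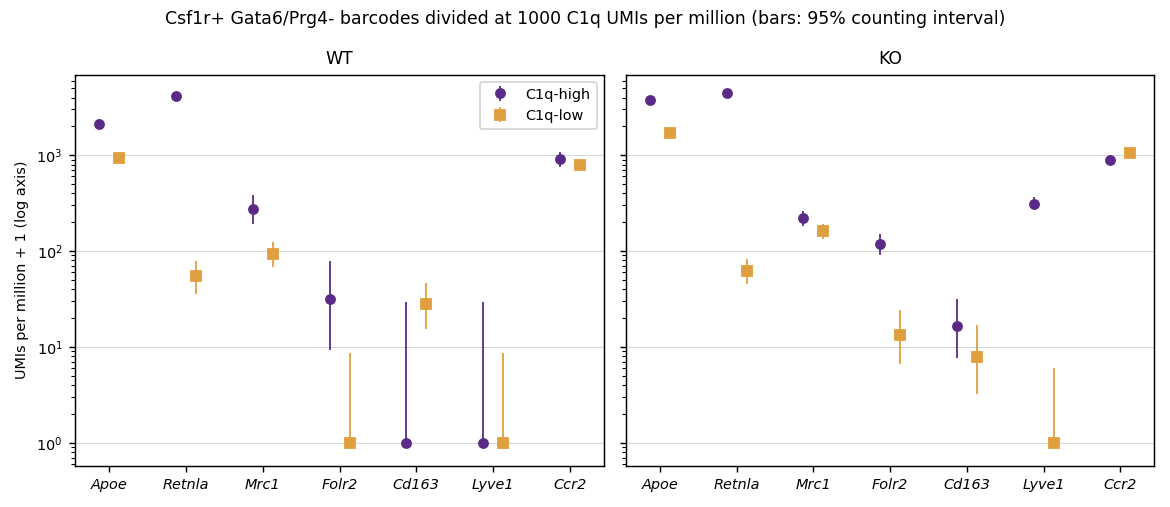
Level of 7 genes (y axis, CPM plus 1, log axis) in C1q-high (purple circles) and C1q-low (orange squares) Gata6/Prg4- barcodes, WT left and KO right, with 95% counting intervals. Retnla differs by 77.9-fold in WT and 73-fold in KO, and Ccr2 lies between 782 and 1052 CPM in all 4 sums.

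Set against each other within a library, the Csf1r+ classes divided 6 of the 10 genes the same way in WT and KO. C1qa was higher in Gata6/Prg4+ barcodes, with a ratio to Gata6/Prg4- of 6.27 (5.55 to 7.11) in WT and 3.23 (3.02 to 3.46) in KO. C1qb had ratios of 4.52 (4.12 to 4.97) and 2.5 (2.37 to 2.64), and C1qc of 8.73 (7.69 to 9.93) and 3.97 (3.7 to 4.25). Apoe had ratios of 8.49 (7.82 to 9.22) and 5.0 (4.8 to 5.22). Ccr2, the monocyte receptor, went the other way, with ratios of 0.0131 (0.00268 to 0.0384) in WT, from 3 UMIs, and 0.0918 (0.0682 to 0.121) in KO. Mrc1 did so as well, with ratios of 0.188 (0.0731 to 0.405) and 0.34 (0.232 to 0.485), the former 0.661 (0.122 to 2.37) and not called after thinning before classing.

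Retnla went opposite ways, with ratios of 3.09 (2.77 to 3.44) in WT and 0.369 (0.331 to 0.41) in KO. The WT ratio was 0.255 after thinning before classing and 1.02 where both Gata6 and Prg4 had to be detected, so its direction did not hold. The KO ratio stayed below 1 in all alternatives, from 0.216 to 0.817, and kept its call in 11 of 14, with 0.817 after thinning. Lyve1 was at least 20.3-fold higher in WT Gata6/Prg4+ barcodes, almost wholly from 1 barcode, and had a ratio of 1.14 (0.866 to 1.49) in KO. Of 8 genes tested in WT 6 were called higher and 2 lower, and of 9 in KO 4 and 3. The threshold between classes was 2-fold, which 26.7% of all genes passed in WT (14.2% higher, 12.6% lower) and 20.2% in KO (12.6% and 7.54%).

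The shares of C1qb and C1qc among C1q UMIs differed between the classes as well. In Gata6/Prg4+ barcodes C1qb made up 38.5% (37 to 40.2) in WT and 40.3% (39.2 to 41.4) in KO, and C1qc 33.7% (32.2 to 35.3) and 30.8% (29.8 to 31.9). In Gata6/Prg4- barcodes C1qb made up 50.7% (48 to 53.4) and 49.1% (47.8 to 50.5), and C1qc 23% (20.7 to 25.3) and 23.7% (22.5 to 24.9). For C1qb and C1qc the intervals of the classes did not overlap in either library. For C1qa they overlapped in both. It made up 27.7% (26.3 to 29.2) in WT and 28.8% (27.8 to 29.9) in KO Gata6/Prg4+ barcodes. In Gata6/Prg4- barcodes it made up 26.3% (23.9 to 28.8) and 27.2% (26 to 28.4). These are shares of counts from a tag library and not of molecules per cell.

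Dendritic barcodes carried Ccr2, Mrc1 and Cd163 and little of the others. Ccr2 stood at 446 CPM (390 to 507) in WT and 535 CPM (487 to 587) in KO, and was detected in 40 of 44 and 104 of 120 barcodes. Mrc1 stood at 147 CPM (116 to 184) and 139.7 CPM (116 to 167). Their KO to WT ratios were 1.2 (1.02 to 1.41) and 0.948 (0.705 to 1.28), neither of them called, though that of Ccr2 was 1.65 and called with no limit on lymphocyte markers.

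Cd163 had its highest sums in the dendritic class. It stood at 79.5 CPM (57 to 108) in WT, in 17 of 44 barcodes, and at 42.6 CPM (29.8 to 59) in KO, in 24 of 120. Its ratio to Gata6/Prg4- barcodes was 3.77 (1.98 to 7.68) in WT and 4.09 (2.12 to 8.4) in KO, the latter with both sums under 50 CPM. The KO to WT ratio of 0.536 (0.333 to 0.86) was called, but not without the highest barcode of each library, at 0.614, nor with no lymphocyte limit, at 0.763. With dendritic barcodes thinned to 2000 UMIs it was detected in 15.9% (6.64 to 30.1) of 44 and 7.56% (3.52 to 13.9) of 119, with intervals that overlapped.

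The C1q chains had 0 UMIs in the 44 WT dendritic barcodes, which allows a share of up to 6.82%. In KO C1qb stood at 76.9 CPM, 34 of its 65 UMIs from 1 barcode and 20 from another, with C1qa at 17.8 and C1qc at 10.7 CPM. The C1qb ratio of at least 13.2 was thus set mostly by 2 of 120 barcodes. Apoe stood at 11.6 (WT) and 8.28 CPM (KO) and Retnla at 5.81 and 5.92 CPM, while Folr2 had 1 and 0 UMIs and Lyve1 none. Between genotypes 2 of 4 genes tested were called, C1qb higher and Cd163 lower, against 9.38% of all genes (3.07% higher, 6.31% lower).

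Against Gata6/Prg4- barcodes, 1 gene was called higher and 5 lower of 8 in WT dendritic barcodes, and 0 and 7 of 9 in KO. Of all genes 13.8% were called in WT (6.14% higher, 7.68% lower) and 14.4% in KO (5.5% and 8.95%). The C1q chains, Apoe and Retnla were lower in both libraries, C1qb by at least 187-fold in WT and 27.1-fold in KO, and Apoe by 102-fold and 309.7-fold. Ccr2 was 1.81-fold and 1.84-fold lower, under the threshold.

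A gene was taken as above the free transcripts where it exceeded the B-cell level by 2-fold in both libraries with an interval above 1. This held for 8 of the 10 genes in Gata6/Prg4+ barcodes (not Cd163 and Ccr2), for 9 in Gata6/Prg4- barcodes (not Lyve1) and for Mrc1, Cd163 and Ccr2 in dendritic barcodes. Of all genes with a UMI in the class or in B cells of either library, 8.36%, 7.9% and 5.96% met the same rule. These shares thus count genes seen only in B cells as well. Apoe in dendritic barcodes was below its level in B cells, of which 30.5% (WT) and 25.2% (KO) held it, at 106 and 128 CPM. T and NK cells had Apoe at 3.11 and 18.6 CPM, so B cells give no clear free level for it. Dendritic barcodes, at 11.6 and 8.28 CPM, lay above T and NK cells in WT and below them in KO. Ccr2 stood at 156 and 208 CPM in T and NK cells, so those cells give no free level for it.

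Other complement genes were read beside the C1q chains, from a list of 27. Between the Csf1r+ classes 9 of 15 tested were called higher in Gata6/Prg4+ barcodes of WT and 9 of 14 in KO, 8 of them in both, and 1 and 0 lower, where 14.2% and 12.6% of all genes were higher. The list's median log2 ratio was 1.96 in WT and 1.61 in KO, against -0.10 and -0.01 for all genes tested. Vsig4, a receptor for C3b, stood at 422 and 305 CPM in WT and KO Gata6/Prg4+ barcodes and at 0 and 0.802 CPM in Gata6/Prg4- barcodes. C4b, a form of the component that activated C1 cleaves, stood at 1041 and 562 CPM, against 4.86 and 4.81 CPM, and is uncertain because its near-identical copy C4a can share its reads.

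Between genotypes 2 complement genes were called in Gata6/Prg4+ and 3 in Gata6/Prg4- barcodes, where 9.28% and 7.61% of all genes were. In Gata6/Prg4+ barcodes C4b was lower in KO, at 0.54 (0.46 to 0.634), and C3ar1 higher, at 1.64 (1.24 to 2.2), of 14 tested. In Gata6/Prg4- barcodes 2 were higher, C3ar1 at 2.1 (1.43 to 3.14) among them, and Itgax, a chain of complement receptor 4, was lower, at 0.495 (0.298 to 0.821) (not called without the highest barcodes, at 0.582), of 11 tested. The medians were -0.07 and 0.07 on the log2 scale, against 0.10 and 0.03 for all genes.

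Alternative activation genes beside Retnla and Mrc1 gave a list of 31, of which 29 were in the files. Between genotypes 3 of 10 tested were higher and 1 lower in Gata6/Prg4+ barcodes, and 2 of 10 higher and 0 lower in Gata6/Prg4- barcodes, with median log2 ratios of -0.01 and 0.11. Of all genes 9.28% and 7.61% were called, with medians of 0.10 and 0.03. Chil3, the chitinase-like protein Ym1, whose close copy Chil4 can share its reads, was higher in both. It stood at 3.52 CPM (1 UMI) in WT and 263 CPM in KO Gata6/Prg4+ barcodes, a ratio of 74.7 (13.2 to 2971), and at 19.4 and 269 CPM in Gata6/Prg4- barcodes, a ratio of 13.9 (7.83 to 27.1). In KO it came from 18 and 52 barcodes, the highest of which held 26.5% and 13.1% of its UMIs. Unlike Retnla, Chil3 was lower in C1q-high than C1q-low KO barcodes, at 78.9 and 406 CPM.

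Other genes of that list were named by the rule. Ccl24, an eotaxin, stood at 257 and 578 CPM in Gata6/Prg4+ barcodes, a ratio of 2.25 (1.74 to 2.94), and Msr1, a scavenger receptor, at 35.6 and 87.4 CPM in Gata6/Prg4- barcodes, a ratio of 2.45 (1.54 to 4.07). Alox15, a lipoxygenase, stood at 2783 and 1882 CPM in Gata6/Prg4+ barcodes and at 0 in Gata6/Prg4- barcodes of both libraries. Ear2, a ribonuclease, stood at 0 in the former and 63.2 and 64.9 CPM in the latter.

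Of 36 resident macrophage genes in the files, 7 of 14 tested were higher in KO Gata6/Prg4- barcodes and 0 lower, with a median log2 ratio of 0.61 against 0.03 for all genes. Of all genes tested in that comparison 4.04% were higher and 3.57% lower. Pf4 stood at 11.3 and 83.4 CPM there, a ratio of 7.35 (3.44 to 18.7), and Cbr2, a carbonyl reductase, at 42.1 and 131 CPM, a ratio of 3.12 (2.06 to 4.92). In Gata6/Prg4+ barcodes 4 were higher and 5 lower of 24, against 5.74% and 3.54% of all genes. The median log2 ratio there was -0.09, against 0.10 for all genes. Cbr2 was higher, at 3.33 (1.76 to 6.96), and so was the scavenger receptor gene Marco, at 2.66 (1.24 to 6.55). Cd5l, a secreted inhibitor of apoptosis, was lower at 0.495 (0.411 to 0.595), and Selp, P-selectin, at 0.574 (0.477 to 0.692). Cxcl13, the B-cell chemokine, was lower at 0.493 (0.431 to 0.563), but 1 WT barcode held 43% of its UMIs and the ratio was 0.69 (0.588 to 0.812) and not called without the highest barcodes. Without them the ratios were 14.6 for Pf4 and 5.1 for Cbr2 in Gata6/Prg4- barcodes and 4.9 for Marco in Gata6/Prg4+ barcodes, all still called.

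Of 28 monocyte genes, 8 of 23 tested were higher and 1 lower in KO Gata6/Prg4- barcodes, with a median log2 ratio of 0.08 against 0.03 for all genes, of which 4.04% were higher and 3.57% lower. Thbs1, thrombospondin, stood at 119.9 and 339 CPM, a ratio of 2.83 (2.21 to 3.67), and Ms4a4c at 122 and 192 CPM, a ratio of 1.58 (1.22 to 2.08), while the adhesion receptor gene Cd226 was lower, at 0.541 (0.325 to 0.903), though under 50 CPM in both sums without the highest barcodes. Ly6c2 stood at 151 and 159.5 CPM and Plac8 at 275 and 273 CPM. Thbs1 was higher in Gata6/Prg4+ barcodes, at 2670 (WT) and 3110 CPM (KO). Between the Csf1r+ classes 6 of 23 genes of this list tested in WT and 6 of 21 in KO were higher in Gata6/Prg4+ barcodes. There 13 and 10 were lower. Of all genes 14.2% and 12.6% were higher and 12.6% and 7.54% lower. Between genotypes 2 of 16 were higher and 1 lower in KO Gata6/Prg4+ barcodes, against 5.74% and 3.54% of all genes. The median log2 ratio there was 0.24, against 0.10 for all genes. The lower one was Il1b, at 0.312 (0.159 to 0.593), but 25 of its 27 WT UMIs came from 1 barcode. Without the highest barcodes it stood at 7.76 (WT) and 19.4 CPM (KO), a ratio of 2.5 (0.545 to 23.2) that turned the direction and was not called.

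Over the 10 sums (5 classes in 2 libraries) the genes other than the 10 that were most like C1qb on the log2(CPM + 10) scale were Msrb1, Fn1, Fgd4, Slc11a1 and Bst1, each with a Pearson r of 0.99. Those most like Retnla were Hmox1, Lyz1, C5ar1, Pla2g7 and Camkk2, each at 0.98. Among those most like Ccr2 were Ppp2r5c at 0.98, Ppp1r12c at 0.97, and Pomp and Fam129a at 0.96. The sums share libraries and fall into myeloid and lymphocyte groups, so these values describe the order of the classes and carry no test.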

How the data were processed

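CD45+ peritoneal cells of each genotype gave 1 droplet expression library and 1 B-cell receptor (BCR) library. The identity of the inactivated gene and the values of some listed genes are not reported here. The deposited matrices hold UMI counts per gene and barcode, not normalised. Their file headers state Cell Ranger 6.1.2. The submitters' processing notes list version 6.0.1 of that program, with Seurat 4.3.0 and the mm39 build, so version and annotation are uncertain. The labels name a 3' kit. From the deposited BCR contig tables only the barcodes with a receptor were taken.

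Kept barcodes had 200 or more genes and a mitochondrial share below 10%. The automatic Scrublet threshold (scanpy 1.11.5) marked 0 doublets, which had not worked, so the highest scores were removed at 0.8% for every 1000 barcodes with ties, 7.87% of WT and 17.2% of KO barcodes. Lymphocytes had at least 0.1% B, T or NK marker UMIs and no Csf1r, and myeloid classes had less than 0.1%.

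UMIs were summed per class and library and given as CPM of the class total with exact Poisson intervals. Ratios carry exact conditional binomial intervals and shares exact Clopper-Pearson intervals, at 95%. PCR duplicates are removed by the UMIs, and the intervals cover counting error only. A difference was called past 1.5-fold between genotypes or 2-fold between classes, with an interval excluding 1 and 50 CPM or more in 1 sum. Lower bounds set a count of 0 to 3 UMIs, and the share that a count of 0 allows is 3 barcodes of the class. The interval code was tested on simulated data. Count models such as edgeR need replicates and were not run. Alternatives changed the class rules, doublet and mitochondrial limits, depth, weighting and minimum. Genes named were the 10, up to 3 of each list by class difference, up to 2 of each list called by genotype in each Csf1r+ class, and the 5 most like C1qb, Retnla and Ccr2. Members, lists and classes were chosen with earlier results of these data known.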

Additional observations from a re-analysis of the deposited data

Results flagged for a closer look

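Retnla differed between genotypes in opposite directions in the 2 Csf1r+ classes. The KO to WT ratio was 0.241 in Gata6/Prg4+ barcodes and 2.02 in Gata6/Prg4- barcodes. The difference between the classes was not tested, since there was 1 library per genotype. In WT 1 barcode held 73.1% of the Retnla UMIs of the former class and 1 barcode held 75.4% of those of the latter. After thinning before classing both directions turned, to 1.91 in Gata6/Prg4+ and 0.597 in Gata6/Prg4- barcodes. Without the highest barcode of each library the Gata6/Prg4+ ratio fell short of the threshold.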

How the results depend on the processing

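No paired analysis was possible because the labels carry no replicate numbers and each genotype has 1 library. Over 16 alternatives, 1315 ratios of the 10 genes were recomputed. Of 736 values for called ratios, 696 kept the call, 33 lost it in the same direction and 7 reversed. Some of the kept calls were fixed in advance, so they are not all separate checks. The automatic Scrublet threshold marked 0 doublets and so repeated the setting without doublet removal. Dropping the minimum CPM could not remove a call. The stricter rules for Gata6 and Prg4 left the Gata6/Prg4- and dendritic classes unchanged. Ratios with a count of 0 in the denominator have no finite value and were left out of these counts. The calls of Lyve1 in Gata6/Prg4- and of C1qb in dendritic barcodes between genotypes were thus not followed. Alternatives in which a WT count fell to 0, as for Ccr2 in Gata6/Prg4+ barcodes, were left out too. Thinning to 2000 UMIs before classing gave 6 of the reversals. Under it the KO to WT ratio became 1.91 for Retnla and 0.377 for Mrc1 in Gata6/Prg4+ barcodes, 0.597 for Retnla in Gata6/Prg4- barcodes and 0.916 for Mrc1 in C1q-low barcodes. The WT ratio between the Csf1r+ classes became 0.255 for Retnla, and that of C1q-high to C1q-low WT barcodes 0.565 for Apoe. With both Gata6 and Prg4 required, the Mrc1 KO to WT ratio became 0.774 in Gata6/Prg4+ barcodes. Thinning leaves out shallow barcodes and removes rare class UMIs, and beyond that the cause was not tested.

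The number of the 10 genes called between genotypes moved from 3 to 1 with both genes required and to 5 with no minimum CPM in Gata6/Prg4+ barcodes, and from 7 to 3 after thinning in Gata6/Prg4- barcodes, with Apoe higher and Retnla lower among the 3. In dendritic barcodes it moved from 2 to 1 at a lymphocyte limit of 0.05%, to 0 after thinning and without the highest barcode, and to 4 with no minimum. In C1q-low barcodes it moved from 2 to 0 after thinning, and to 4 with no minimum and with the division at 2000 CPM. Genes above the B-cell level in dendritic barcodes fell from 3 to 1 after thinning. The KO share of C1q-high barcodes moved from 36.9% to 44.2% with at least 2 Csf1r UMIs and 29.5% with no lymphocyte limit. For these the cause was not tested. The divisions at 500 and 2000 CPM were chosen after seeing the data. The WT myeloid classes hold 22, 64 and 44 barcodes, so single barcodes weigh on their sums. Leaving out the highest barcodes was extended to the named list genes after seeing the data, and turned the Il1b KO to WT ratio to 2.5 in Gata6/Prg4+ barcodes.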

Other observations

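Apoe was found in B cells well above its level in T and NK cells of the same libraries. It stood at 106 CPM (104 to 109) in WT and 128 CPM (125 to 131) in KO B cells, against 3.11 and 18.6 CPM in T and NK cells, and no B-cell barcode held more than 0.91% of its UMIs. B cells with a UMI of Fcer2a (CD23, a marker of follicular B cells) had 80.6 CPM in WT and 98.0 CPM in KO, and those without one 115 and 137 CPM. Their median depths were 4772 and 2876 UMIs with Fcer2a and 7783 and 3343 without. B cells with a UMI of Zbtb32, a transcription factor gene, had 102 CPM (98.8 to 105) in WT and 124 CPM (121 to 129) in KO. These intervals overlapped those over all B cells, of which this set is part. Their median depths were 9808 and 5884.5 UMIs, against 7040 and 3212 over all B cells. Of them 39.1% and 35.9% held Apoe, against 30.5% and 25.2% of all B cells.

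Barcodes with Csf1r that fell in no class, because they carried lymphocyte markers above the limit, numbered 67 in WT and 135 in KO, of which 42 and 89 had a BCR contig. Their C1qb stood at 645 and 713 CPM, their Apoe at 1825 and 957 CPM, their Retnla at 561 and 120 CPM and their Cd79a, a B-cell receptor gene, at 1490 and 1749 CPM.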
